A study of Homo sapiens with 4 samples.

Results

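The mitochondrial ribosomal proteins are the nuclear-encoded protein subunits of the mitoribosome, the ribosome that works inside mitochondria. They were taken here as the protein-coding rows of the expression table whose gene symbol starts with MRPL or MRPS followed by a digit, which stand for the large and the small subunit. The rule matched 86 rows, and where a symbol was repeated the row with the highest mean over the 4 libraries was kept, which left 76 genes (47 MRPL and 29 MRPS) of 63677 rows in all. The cells were of MDA-MB-231, a human line long established from a triple-negative breast tumor. They were transfected, with a lipid reagent, either with a control siRNA (siCt, 2 libraries) or with a pool of siRNAs specific to AXL (siAxl, 2 libraries), a receptor tyrosine kinase. Every library thus came from transfected cells of the same line, no untransfected cells were analysed here, and a single siRNA pool stood for the loss of AXL. The dose and duration of the transfection are not given in the sources used here, and neither is whether the libraries of a group came from separate cultures, so that p-values measure only the spread between these samples, which may be technical.

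Mitoribosomes translate the few messages that mitochondrial DNA still encodes, all of them subunits of the respiratory chain complexes and of the ATP synthase. Their ribosomal RNAs are transcribed inside the organelle, whereas every protein subunit is made in the cytosol and imported, so that the nuclear and the mitochondrial genome have to supply matching parts. Part of the proteins descend from those of the bacterial ribosome, and the others were added in the mitochondrial lineage. Tumor cells that rely on respiration depend on this machinery, and transcription factors such as NRF1, GABPA (an ETS factor) and YY1 are known regulators of nuclear genes for mitochondrial proteins.

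Values are normalized counts, that is reads per gene divided by the size factor of the library. The reads behind them summed to between 39574387 and 44585773 per library. AXL itself, the target, had 29189 and 30617 normalized counts in the siCt libraries and 8658 and 7141 in the siAxl libraries, which is −1.93 ± 0.0918 (standard error) on the log2 scale (limma adjusted p = 0.000585). VIM and CD44, which mark this mesenchymal-like line, lay at 86751 to 99296 and at 33968 to 36518. VIM and CD44 were not called (limma adjusted p = 0.248 and 0.548). CAV1, also listed as present, held 17507 and 17121 in siCt and 21462 and 22382 in siAxl and was called higher (limma adjusted p = 0.00908). ESR1 and PGR, the hormone receptors that a triple-negative line lacks, stayed at or below 3.25. ERBB2 was present at 2949 to 3680 and was called higher in siAxl (limma adjusted p = 0.0258). CDH1, listed as low or absent, held 90.1 and 94.3 in siCt and 36.9 and 22.6 in siAxl and was called lower (limma adjusted p = 0.00847). The endothelial marker PECAM1 and the B cell marker MS4A1 were at 0, and the leukocyte marker PTPRC at 7.77 to 16.7. Of the other markers of foreign cell types, CD3E and CDH5 stayed at or below 1.08, CD68 at or below 41.8 and CD14 at or below 73.7 in siCt and 113 in siAxl (limma adjusted p = 0.0509), and COL1A1 lay at 1546 and 1599 in siCt and 1350 and 1291 in siAxl, where it was called lower (limma adjusted p = 0.0378). Genes of mitochondrial DNA took 3.70% of the reads in siCt 1 and 3.78% in siAxl 1 but 2.11% in siCt 2 and 2.28% in siAxl 2. This share thus differed more by the number of the library than by the siRNA. Within each number it was slightly higher in siAxl, and what the numbers share is not given.

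Promoter sequences show what a good part of the genes share besides their function. RefSeq promoters (assembly GRCh38.p14, from 250 bases before to 50 bases after the start of the gene) were matched by symbol for 67 of the 76 genes. Letters known from the binding sites of 4 factors were searched on both strands: CCGGAAG for ETS factors such as GABPA, AAGATGGCG for YY1, GCGCATGC for the core of the NRF1 site, and CACGTG, the E-box. None of these motifs contains another. The 150 bases from 100 before to 50 after the start are printed 5′ to 3′ on the strand of the gene, with every motif match in capitals (on either strand). They are given for 4 genes that were lower in siAxl and for MRPL36, the gene that was higher. The 4 lower genes are examples that hold a motif and do not stand for all genes called lower. MRPS7, MRPS35 and MRPL14, also called lower, held none of the 4 motifs in the whole promoter, and MRPL37 and MRPL45 held only the E-box. The coordinates are those of GRCh38.p14 and not of the build of the expression table (GRCh37, per the submitters' processing notes).
MRPS18B, chr6:30617740-30617889, plus strand, with the NRF1 core and the YY1 letters: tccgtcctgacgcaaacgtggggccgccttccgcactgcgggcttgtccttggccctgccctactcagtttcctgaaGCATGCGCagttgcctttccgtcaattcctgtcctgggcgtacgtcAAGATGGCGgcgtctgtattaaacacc
MRPS23, chr17:57849995-57850144, minus strand, with the ETS letters: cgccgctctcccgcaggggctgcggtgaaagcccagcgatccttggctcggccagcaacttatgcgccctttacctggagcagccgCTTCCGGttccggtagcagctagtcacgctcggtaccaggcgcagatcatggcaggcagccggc
MRPL50, chr9:101398569-101398718, minus strand, with the YY1 letters: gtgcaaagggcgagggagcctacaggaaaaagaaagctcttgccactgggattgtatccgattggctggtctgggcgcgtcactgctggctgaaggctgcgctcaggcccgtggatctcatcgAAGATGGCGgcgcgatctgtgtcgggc
MRPL52, chr14:22829787-22829936, plus strand, with the YY1 letters at 2 places and the ETS letters: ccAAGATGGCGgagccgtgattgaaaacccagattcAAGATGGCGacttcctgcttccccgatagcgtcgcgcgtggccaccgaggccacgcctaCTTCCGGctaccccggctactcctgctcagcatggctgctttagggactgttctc
MRPL36, chr5:1799788-1799937, minus strand, with the E-box and the YY1 letters: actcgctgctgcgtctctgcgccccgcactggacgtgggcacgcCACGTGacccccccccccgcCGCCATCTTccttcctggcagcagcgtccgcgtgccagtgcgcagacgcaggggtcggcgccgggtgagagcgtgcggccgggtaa

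ETS letters were found in the 300-base promoters of 28 of the 67 genes, or 41.8%, against 10.7% of all 27305 promoters and 18.5% of the 10282 promoters of genes tested here. YY1 letters were found in 13 genes, or 19.4%, against 1.85% of all promoters and 3.87% of those of tested genes. The NRF1 core stood in 6 genes (8.96%, against 3.27% and 5.40%), and the E-box likewise in 6 (8.96%, against 7.43% and 9.91%). At least 1 of the ETS, YY1 and NRF1 motifs was present in 38 genes, and 29 genes held none of them in this window. These matches describe letters and not sites at which a factor was measured.

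Transcripts of the mitochondrial ribosome were, for the most part, lower in siAxl than in siCt. Of the 76 genes, 75 had enough reads to be tested, and 67 of them had a log2 fold change below 0, against 8 above. With limma on log2(normalized count + 1) and a Benjamini-Hochberg adjusted p under 0.05 as the threshold, 21 genes were lower in siAxl and 1, MRPL36, was higher. Among all 16064 genes tested, 7.91% were called lower and 10.8% higher (1271 and 1735 genes). Scaled by library size alone these were 1745 and 1536 genes over all, and within the family 29 and 1. In 60 of the 75 genes the siAxl libraries were both lower than either siCt library, an order found in 30.5% of all genes tested. The opposite order, with both siAxl libraries above, was found in 3 genes, against 30.6% of all genes tested, and the groups overlapped in the other 12. The median log2 fold change was −0.16, while the median over all genes tested was −0.0022 with quartiles of −0.16 and 0.19. The declines were small: in the 21 genes called lower the siAxl mean stood between 76.4% and 84.4% of the siCt mean. In these bulk libraries, fewer cells with a transcript and less of it per cell cannot be told apart.

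**Figure D1:**
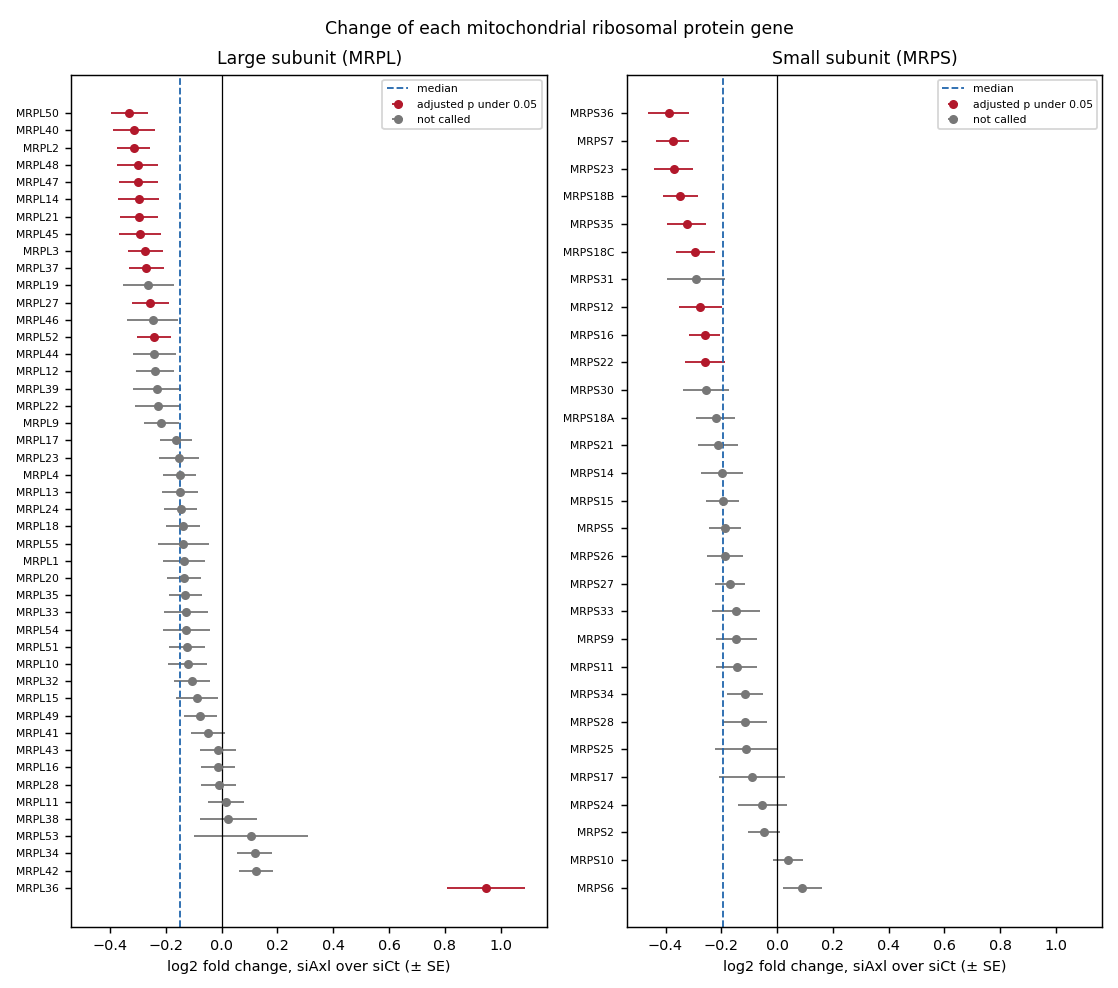
Log2 fold change of siAxl over siCt (x axis) for the 46 MRPL and 29 MRPS genes tested, sorted by value, with bars of 1 standard error; red points are called at an adjusted p under 0.05 by limma and the dashed line is the median of the subunit. Most points lie left of 0 in both panels, and MRPL36 stands alone at 0.95.

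The summed normalized counts of the 76 genes were 145760 and 151720 in the siCt libraries, and 131130 and 135210 in the siAxl libraries. Expressed as a share of all reads, the family took 0.343% and 0.354% in the siCt libraries and 0.303% and 0.309% in the siAxl libraries. Both siAxl libraries were thus lower than both siCt libraries, although 2 libraries against 2 cannot give a two-sided exact permutation p below 0.333. The count of called genes depended on single libraries and on the filter. Without siAxl 1, 0 large-subunit genes and 1 small-subunit gene were called lower, without siAxl 2 they were 3 and 5, without siCt 2 they were 4 and 5, and without siCt 1 they were 17 and 11. When every gene with at least 1 read was kept, the numbers were 0 and 1. Over all genes, 340 of 27108 were then called lower, against 1271 of 16064 with the stricter filter. Calls over all genes tested also fell when any library but siCt 1 was left out, and rose without siCt 1. The count of log2 fold changes below 0 stayed between 65 and 69 of 75 in these fits and in the other alternatives. The family held more reads than the typical gene, with a median mean count of 1674 against 884 over all genes tested, and its median standard error was 0.0696 against 0.0891.

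In the large subunit, 46 of 47 MRPL genes were tested, 12 were called lower and 1 higher, and 40 lay below 0. The median log2 fold change was −0.15, and values ran from −0.33 to 0.95. The siAxl libraries lay below the siCt libraries in 35 genes, above them in 3, and overlapped with them in 8. In edgeR's quasi-likelihood test on the recovered reads the same numbers were called, and in DESeq2 10 were lower and 1 higher.

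MRPL2, the counterpart of a bacterial protein close to the peptidyl transferase centre, where peptide bonds form, held 3276 and 3415 normalized counts in the siCt libraries (1 and 2) and 2630 and 2749 in the siAxl libraries. MRPL50, a subunit that mitochondria added, went from 1625 and 1714 to 1353 and 1300. MRPL21 went from 1208 and 1201 to 962 and 998. In these 3 genes the siAxl libraries were both lower, with a gap that was wide beside the difference between libraries of a group. Their log2 fold changes were −0.31 for MRPL2 (standard error 0.059, limma adjusted p = 0.0142), −0.33 for MRPL50 (standard error 0.0661, limma adjusted p = 0.0173) and −0.30 for MRPL21 (standard error 0.0674, limma adjusted p = 0.0256). MRPL3, which like MRPL2 belongs to the conserved core, had 3116 and 3326 normalized counts in siCt and 2601 and 2728 in siAxl (log2 fold change −0.27, limma adjusted p = 0.0263). MRPL37, another protein without a bacterial counterpart, had 3790 and 3984 in siCt and 3118 and 3331 in siAxl (log2 fold change −0.27, limma adjusted p = 0.0267).

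The other 7 MRPL genes called lower had log2 fold changes from −0.32 to −0.24. They were MRPL40 (−0.32), MRPL48 (−0.30), MRPL47 (−0.30), MRPL14 (−0.30), MRPL45 (−0.29), MRPL27 (−0.26) and MRPL52 (−0.24). MRPL14 takes part in the contact between the subunits, and MRPL45 lies at the tunnel exit and attaches the ribosome to the inner membrane. In none of the 12 genes did a siAxl library reach a siCt library. In DESeq2, MRPL27 and MRPL40 were no longer called. Without siAxl 1 none of the 12 was called.

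MRPL36 was the exception. This small protein, the counterpart of bacterial L36, held 754 and 558 normalized counts in siCt 1 and siCt 2 and 1187 and 1322 in siAxl 1 and siAxl 2. The siAxl mean was 191% of the siCt mean, and its log2 fold change was 0.95 ± 0.14 (limma's standard error, adjusted p = 0.00674) and lay between 0.73 and 1.16 when single libraries were left out. It was called higher in all of these fits, in edgeR and in DESeq2. The difference between its siCt libraries was wide, but neither reached a siAxl library. Of the remaining large-subunit genes that were tested, only MRPL42 and MRPL34 also had both siAxl libraries above both siCt libraries. MRPL42 held 2665 and 2657 normalized counts in siCt against 2814 and 2984 in siAxl, and MRPL34 1614 and 1536 against 1704 and 1717. Their log2 fold changes, 0.12 for both, did not pass the test (limma adjusted p = 0.194 and 0.232).

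**Figure D2:**
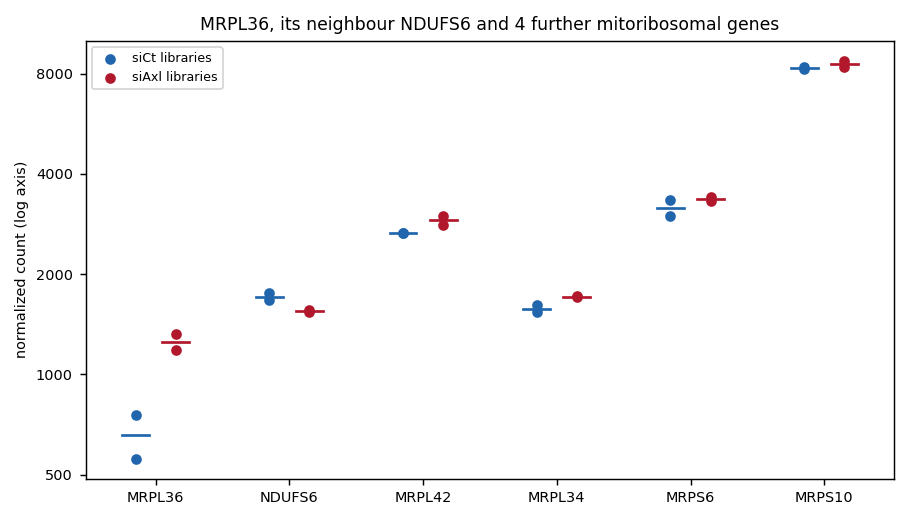
Normalized counts (log axis) of MRPL36, of its neighbour NDUFS6 and of MRPL42, MRPL34, MRPS6 and MRPS10 in the 2 siCt (blue) and 2 siAxl (red) libraries, with bars at the group means. MRPL36 rose from 754 and 558 to 1187 and 1322, whereas the other groups lie close together.

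The stalk of the large subunit, which recruits translation factors, is built from MRPL10, MRPL11 and MRPL12. None of these was called over all 4 libraries with the deposited scaling and without the replicate number as a block. MRPL12, which forms the flexible arms of the stalk, held 962 and 958 normalized counts in siCt and 816 and 811 in siAxl (log2 fold change −0.24, limma adjusted p = 0.0545). It was called lower with scaling by library size alone, with library sizes that left out the genes of mitochondrial DNA, and with the replicate number as a block. MRPL10, the base of the stalk, went from 1368 and 1484 to 1307 and 1311 (log2 fold change −0.12, limma adjusted p = 0.265). MRPL11 stood at 1343 and 1346 against 1334 and 1385, with a log2 fold change of 0.016 (limma adjusted p = 0.890). Only for MRPL11 did the groups overlap, and its sign turned to −0.014 with scaling by library size alone, to −0.012 with library sizes that left out the genes of mitochondrial DNA and to −0.012 without siAxl 2.

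Read depth differed widely among MRPL genes. MRPL14, one of those called, had the highest mean, with 4375 and 4966 normalized counts in siCt and 3703 and 3882 in siAxl (log2 fold change −0.30, limma adjusted p = 0.0330). MRPL49 followed with 3940 and 4124 against 3736 and 3912 and was not called (log2 fold change −0.076, limma adjusted p = 0.408). Among the sparsest, MRPL53 held 108 and 76.9 normalized counts in siCt and 106 and 91.4 in siAxl, so that the groups overlapped (log2 fold change 0.11, limma adjusted p = 0.763, and −0.14 without siCt 2). MRPL30 fell under the low-count filter with 4.79, 6.50, 8.74 and 6.88 and was not tested. Its symbol stands in 2 protein-coding rows, and its exons overlap those of same-strand readthrough genes by up to 19.5%, and the part of shared reads in its low value was not tested.

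In the small subunit, all 29 MRPS genes were tested, 9 were called lower and 27 lay below 0. None was called higher by limma, where 0 of them had an unadjusted p under 0.05 in that direction, and edgeR and DESeq2 also called 0 higher. The median log2 fold change was −0.20, and values ran from −0.39 to 0.09. The siAxl libraries lay below the siCt libraries in 25 genes and overlapped with them in 4. DESeq2 called 6 lower and edgeR 9.

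MRPS7, which organises the head of the small subunit, held 2547 and 2533 normalized counts in siCt 1 and siCt 2 and 1927 and 1991 in siAxl 1 and siAxl 2. MRPS23, a subunit particular to mitochondria, went from 2249 and 2481 to 1796 and 1857, and MRPS18B from 3838 and 4175 to 3098 and 3199. The siAxl libraries of these 3 genes lay close to each other and well below siCt. Log2 fold changes were −0.37 for MRPS7 (standard error 0.0579, limma adjusted p = 0.00768), −0.37 for MRPS23 (standard error 0.0697, limma adjusted p = 0.0143) and −0.35 for MRPS18B (standard error 0.0633, limma adjusted p = 0.0132). MRPS7 was the only one of the 21 genes that was still called lower without siAxl 1. MRPS16, conserved from bacteria, had 4631 and 4791 in siCt and 4014 and 3857 in siAxl (log2 fold change −0.26, limma adjusted p = 0.0223).

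MRPS36 had the lowest log2 fold change of the family, −0.39 (standard error 0.0731, limma adjusted p = 0.0144), with 1368 and 1391 normalized counts in siCt and 1007 and 1102 in siAxl. Its protein is now assigned to the oxoglutarate dehydrogenase complex of the citric acid cycle and not to the ribosome. The other 4 genes called lower were MRPS35 (−0.32), MRPS18C (−0.29), MRPS12 (−0.28), which lies at the decoding centre, and MRPS22 (−0.26). In all 9 genes both siAxl libraries were below both siCt libraries. DESeq2 did not call MRPS12, MRPS18C and MRPS22.

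Only MRPS6 and MRPS10 of the small subunit had log2 fold changes above 0, and neither passed the test. MRPS6 had 2992 and 3346 normalized counts in siCt and 3325 and 3413 in siAxl (log2 fold change 0.09, limma adjusted p = 0.412). MRPS10, the gene with the most reads of the family, had 8387 and 8267 against 8384 and 8751 (log2 fold change 0.041, limma adjusted p = 0.646). In both genes the groups overlapped. MRPS17 and MRPS24 had the lowest mean counts of the MRPS genes, with 294 and 343 against 287 and 311 for MRPS17 and 457 and 466 against 434 and 456 for MRPS24. Their log2 fold changes were −0.09 (limma adjusted p = 0.643) and −0.053 (limma adjusted p = 0.718), and that of MRPS17 was 0.021 without siCt 2.

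**Figure D3:**
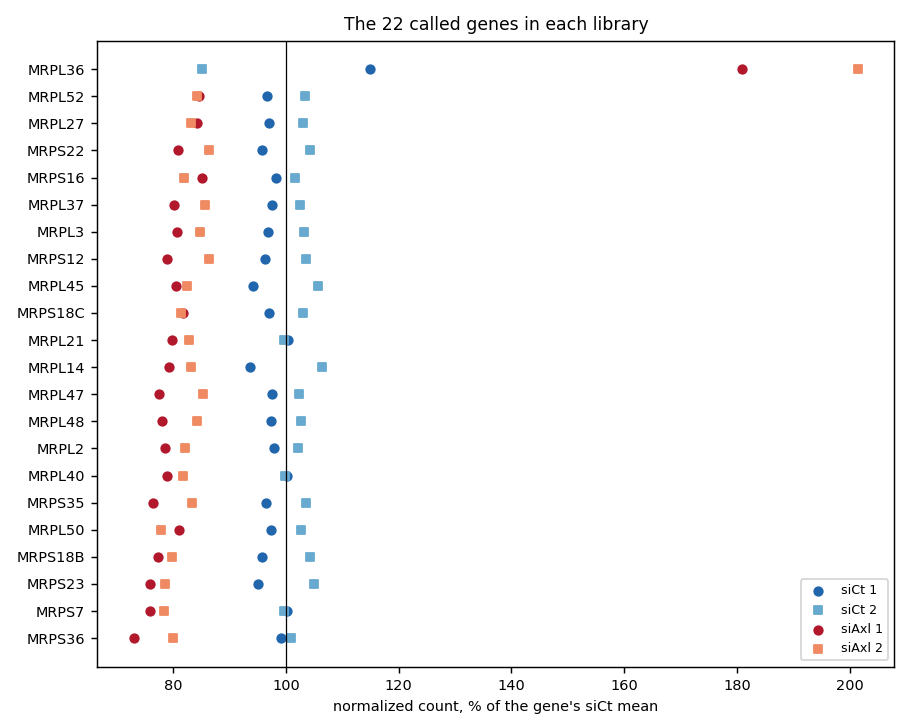
Normalized count of the 22 called genes in each library as a percentage of the gene's siCt mean (x axis, line at 100), with siCt libraries in blue and siAxl libraries in red and orange. In the 21 lower genes the siAxl points lie apart from and left of the siCt points, and MRPL36 lies to the right.

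Gene names and structure do not coincide everywhere. MRPS30 and MRPS18A, despite their names, sit in the large subunit. MRPS30 held 1927 and 2226 normalized counts in siCt and 1680 and 1792 in siAxl (log2 fold change −0.26, limma adjusted p = 0.0766). MRPS18A held 1608 and 1746 against 1422 and 1454 (log2 fold change −0.22, limma adjusted p = 0.0664). When both were counted with the large subunit and MRPS36 with neither, 12 of 48 large-subunit genes were called lower and 1 higher, with a median of −0.15, and 8 of 26 small-subunit genes were called lower, with a median of −0.19.

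Evolutionary origin gave another way to divide the genes. Of the 45 tested genes with a counterpart in the bacterial ribosome, 10 were called lower and 1 higher, with a median log2 fold change of −0.15. Of the 27 that are particular to mitochondria, 10 were called lower, with a median of −0.23, and limma, edgeR and DESeq2 called 0 higher (0 at an unadjusted p under 0.05). MRPS30, MRPS18A and MRPS36 were counted in neither class. The difference between the classes was not tested. Both classes held genes near 0 as well as genes below −0.30.

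Promoter motifs were set beside the log2 fold changes as a description. The 27 tested genes with the ETS letters had a median of −0.21 and the 39 without them −0.16, with 11 and 7 genes called lower. For the YY1 letters the medians were −0.22 over 13 genes and −0.17 over 53, with 3 and 15 genes called lower. MRPL36, whose promoter is printed above, also holds the YY1 letters. For the NRF1 core the medians were −0.24 over 6 genes and −0.16 over 60, with 3 and 15 genes called lower. For the E-box, about as frequent here as among promoters of tested genes, they were −0.25 over 6 and −0.17 over 60, also with 3 and 15. The medians with and without a motif were thus all below 0, and the differences were not tested.

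Several of the genes share a start region with a neighbour on the opposite strand. Starts no more than 1000 bases apart were found for 16 of them, by the annotation of GENCODE 29. Only protein-coding neighbours that run away from the gene without overlapping its start were counted, so pairs with overlapping starts are left out. NDUFS6, a respiratory complex I gene that starts 34 bases from MRPL36, held 1671 and 1755 normalized counts in siCt and 1542 and 1560 in siAxl (log2 fold change −0.14, limma adjusted p = 0.160). It thus lay on the other side of 0 from MRPL36. For MRPL27 the neighbour was EME1, 6 bases away, which was called lower (log2 fold change −0.45, limma adjusted p = 0.0179). For MRPL50 it was ZNF189, 259 bases away, which was called higher (log2 fold change 0.39, limma adjusted p = 0.0231). For MRPL18, itself not called (−0.14), it was TCP1, 63 bases away, which was called lower (log2 fold change −0.34, limma adjusted p = 0.0084). The signs were opposite for MRPL36, MRPL41, MRPL50, MRPL52 and MRPL54. They were the same in the other pairs in which both genes were tested.

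The 2 genes with the highest log2 fold changes of the family were also the only ones with the 7-base word CACATCA in a 3′ UTR. The word was searched because it had been described earlier for these data, so the match is not independent. It stood in 2 of 73 genes with an annotated 3′ UTR (2.74%), against 1685 of 12988 tested genes (13.0%), whose median log2 fold change was 0.10 against −0.011 for those without it. In MRPL36 it was present once in all 4 annotated transcripts, none longer than 686 bases. In MRPL42 it stood in 1 of 5 transcripts, which spans 15582 bases with a 3′ UTR from base 591 and holds 3 copies. MRPL42 was not called (limma adjusted p = 0.194), and its log2 fold change of 0.123 lay close to the 0.119 of MRPL34, which lacks the word. The stretches around it (the first copy for MRPL42) are printed with the word in capitals, and any part of the word in these 2 values was not tested.
MRPL36: aaggaattatCACATCAaggagtcagg
MRPL42: tacagtctgtCACATCAtgccctaatt

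Other genes of mitochondrial translation were read from lists written by hand, with the same fit. The ribosomal subunits with other names, such as DAP3, had a median log2 fold change of −0.19 over 7 genes, and 1, PTCD3, which belongs to the small subunit, was called lower (−0.28, limma adjusted p = 0.0171). Of 26 assembly factors, 2 were called lower and 1 higher, with a median of −0.097. RBFA, which binds the maturing small-subunit RNA, had a log2 fold change of −0.36 (limma adjusted p = 0.0243), the pseudouridine synthase RPUSD3 one of −0.27 (limma adjusted p = 0.0464), and NGRN one of 0.28 (limma adjusted p = 0.0420). These counts lie near or under the shares called over all genes tested (7.91% lower and 10.8% higher).

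Of 16 translation factors and related proteins, 7 were called lower, with a median of −0.23. The elongation factor GFM1 held 2522 and 2721 normalized counts in siCt and 1990 and 2029 in siAxl (log2 fold change −0.38, limma adjusted p = 0.00982). SLIRP, a partner of LRPPRC that stabilises mitochondrial messages, had a log2 fold change of −0.39 (limma adjusted p = 0.0183), GUF1 one of −0.32 (limma adjusted p = 0.0228) and GFM2, which acts in ribosome recycling, one of −0.32 (limma adjusted p = 0.0229). A list of 20 genes held 17 mitochondrial aminoacyl-tRNA synthetases, which load amino acids onto tRNAs, and 3 subunits of the glutamyl-tRNA amidotransferase (PET112, GATC and QRSL1), and 5 of them, all synthetases, were called lower, with a median of −0.13. The 4 with the smallest adjusted p were TARS2 (−0.36), LARS2 (−0.31), MARS2 (−0.48) and VARS2 (−0.26). Limma called 0 of the translation factors and 0 of the synthetase list higher (0 and 1 at an unadjusted p under 0.05), as did edgeR.

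Of 15 genes for transcription, processing and replication of mitochondrial DNA, 4 were called lower, with a median of −0.088, and 3 by edgeR. TFAM, which packages mitochondrial DNA and starts its transcription, held 4395 and 4874 normalized counts in siCt and 3325 and 3581 in siAxl (log2 fold change −0.42, limma adjusted p = 0.0103). The others were the RNA-processing exonuclease PNPT1 (−0.38), the helicase SUPV3L1 (−0.24) and C10orf2, the replicative helicase of mitochondrial DNA (−0.27). The mitochondrial ribosomal RNAs themselves were not called by limma or edgeR and had an unadjusted p above 0.05, with a log2 fold change of 0.25 for MT-RNR2 (limma adjusted p = 0.527) and 0.10 for MT-RNR1 (limma adjusted p = 0.617). MT-RNR2 stood at 191743 and 124768 normalized counts in siCt and at 227992 and 147992 in siAxl, so that it too followed the number of the library, and it was called higher without siCt 1. In siAxl MT-RNR2 was higher than in the siCt library of the same number in both cases, although what the numbers share is not given. With the replicate number as a block, limma called both MT-RNR2 and MT-RNR1 higher.

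Of 11 regulators of mitochondrial biogenesis, 3 were called lower and 1 higher, with a median of −0.043. GABPB2, a partner subunit of the ETS factor GABPA, had a log2 fold change of −0.62 (limma adjusted p = 0.00555), PPARGC1A, a coactivator of mitochondrial biogenesis, one of −0.67 (limma adjusted p = 0.0185), and E2F1, a cell cycle transcription factor, one of −0.52 (limma adjusted p = 0.00304). YY1 was higher, at 0.29 (limma adjusted p = 0.0165). GABPA and NRF1 stood near 0, at −0.043 (limma adjusted p = 0.691) and −0.0055 (limma adjusted p = 0.969). Of YY1, GABPA and NRF1, named above with their promoter letters, YY1 was thus called higher, and GABPA and NRF1 did not pass the test. The E-box was not set beside a factor of this list.

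**Figure D4:**
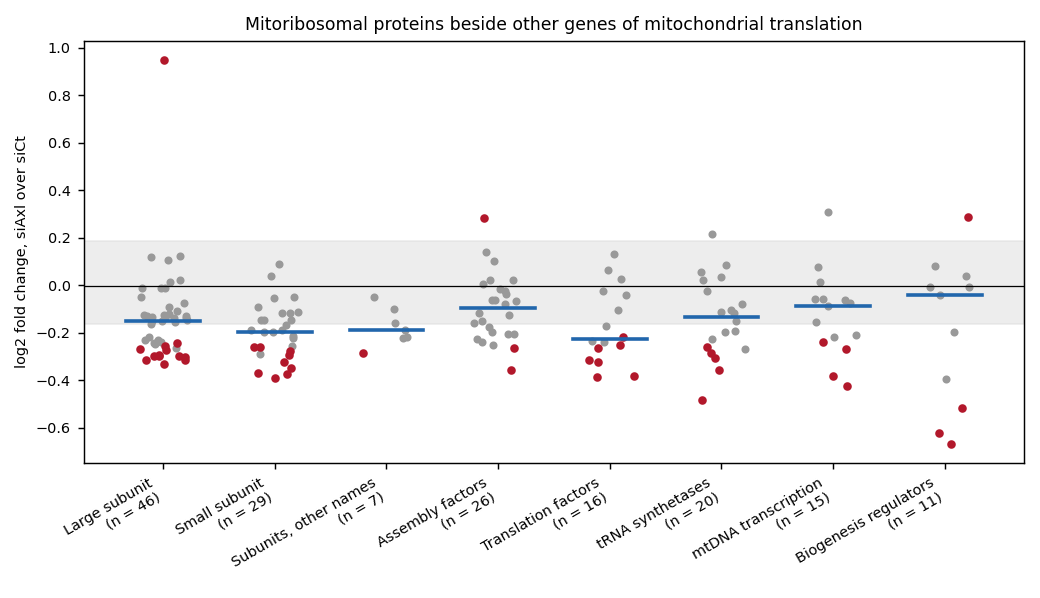
Log2 fold change of siAxl over siCt (y axis) for each tested gene of the 2 subunits and of 6 other lists of mitochondrial translation and biogenesis; red points are called by limma, blue bars are medians and the grey band spans the quartiles of all genes tested. The medians of the lists run from −0.23 for translation factors to −0.043 for biogenesis regulators.

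The calls in these lists also depended on single libraries. Over all of them, 22 genes were called lower and 2 higher, against 7 and 1 without siAxl 1, 11 and 0 without siAxl 2, 19 and 1 without siCt 2, and 24 and 4 without siCt 1. With every gene of at least 1 read kept they were 4 and 0, and over all 27108 genes 340 and 757. Calls over all genes tested likewise fell when any library but siCt 1 was left out, and rose without siCt 1. Among the genes named, E2F1, GABPB2, PPARGC1A, PNPT1, TFAM and GFM1 were called lower in each of the 4 fits that left out a library. YY1 was not called without siAxl 2.

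Proteins of the cytosolic ribosome were taken as the closest family in function. Of the 69 genes, 68 were tested, 1 was called lower and 1 higher, and the median log2 fold change was −0.079. Over all genes tested, 7.91% were called lower and 10.8% higher. In this family, too, most genes, 54 of 68, lay below 0. Both siAxl libraries were below both siCt libraries in 28 genes (41.2%, against 30.5% of all genes tested). They were above in 3 genes (against 30.6% of all genes tested), and the groups overlapped in 37. The difference from the mitochondrial family was not tested.

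Reads shared with other rows of the table could bear on single values. Rows of MRPL or MRPS pseudogenes and antisense genes numbered 68, of which 4 were tested and none was called by limma or edgeR (0 at an unadjusted p under 0.05). They held 105.75 reads per library, or 0.0749% of the reads of the family. The strand setting of the counting is not given in the sources used here, and for MRPS18C 40.2% of the exon bases lie opposite to exons of ABRAXAS1, which had 1393 reads per library against 1004 of MRPS18C. For MRPS12, MRPL2, MRPL47 and MRPS7, also called lower, the overlaps were 16.3%, 14.7%, 9.05% and 6.41%. MRPL36 had no such overlap, and the part of overlaps in the other values was not tested.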

How the data were processed

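RNA-seq libraries of MDA-MB-231, 2 siCt and 2 siAxl, were grouped by their labels and compared. Per the submitters' processing notes, CASAVA 1.8, TopHat2 2.0.10, HTSeq 0.5.3, DESeq2 1.4.5 and GRCh37 were used. The authors deposited a table of signal values, reads per gene divided by DESeq2 size factors. Its columns of the authors' own fold changes and p-values were not used. Dividing by what 1 read is worth gave whole numbers (within 0.01) for 100% of values, so the reads were recovered (39574387 to 44585773 per library). A count of 0 allows up to 3 reads, for counting error only. No per-sample column was left unused.

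The 16064 genes past filterByExpr of edgeR were tested with limma 3.58.1 (lmFit, eBayes with trend; R 4.3.3) on log2(normalized count + 1), two-sided, with Benjamini-Hochberg adjustment over all of them. Fold changes are on that scale, which understates changes of low genes. Alternatives were edgeR 4.0.16, DESeq2 1.42.0, other scalings, pseudocounts of 0.5 and 8, a filter of 1 read, a replicate block and leaving out each library. Libraries of a group differed beyond sampling noise on average (mean chi-square per gene 21.9 in siCt and 19.7 in siAxl). Genes with many reads can weigh heavily in this mean, so it need not describe a typical gene. The code was tested on simulated data.

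The members and lists were chosen with earlier results of these data known. Values in all libraries were given, in each subunit, for the 5 lower and 4 higher genes with the smallest adjusted p and the 2 genes of highest and of lowest mean count, and for AXL, MRPS30, MRPS18A, MRPS36, the stalk and MRPL30. Of each list, the called genes were named, or the 4 with the smallest adjusted p. The motifs, the neighbours and the word CACATCA were added as descriptions. Overlaps, starts and 3′ UTRs came from GENCODE 29, by identifier (74 of 76 genes).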

Additional observations from a re-analysis of the deposited data

How the results depend on the processing

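Leaving out 1 library at a time, large-subunit genes called lower numbered 0 to 17 and small-subunit genes 1 to 11, with medians from −0.18 to −0.12 and from −0.21 to −0.20; the lone library of a group was assumed to vary like the others. With every gene of at least 1 read kept (27108 genes), 0 and 1 were called lower, although 42 of the 75 had an unadjusted p under 0.05 in limma. Over all 27108 genes, 340 were then called lower. Small-subunit genes called lower numbered 14 with library sizes that left out the genes of mitochondrial DNA, and the small-subunit median was −0.22 with these and with library size alone. With library size alone the calls over all genes were 1745 lower and 1536 higher (46.8% higher), against 1271 and 1735 (57.7%).

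The titles number the libraries 1 and 2 in both groups but do not say what a number shares. Over the genes tested, the difference between siCt 1 and siCt 2 correlated at 0.271 with that between siAxl 1 and siAxl 2. With the replicate number as a block, 30 large-subunit genes were called lower and 3 higher, and 22 small-subunit genes lower. Calls rose over all 16064 genes tested as well, to 3573 lower and 3737 higher, against 1271 and 1735 without the block. Over the other lists the block gave 48 lower and 5 higher, against 22 and 2, and both mitochondrial ribosomal RNAs were then called higher. It also called MRPL12 lower.

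Among the genes given with values in all libraries, signs turned for MRPL11 (−0.014 with library size alone, −0.012 without genes of mitochondrial DNA, −0.012 to 0.043 without single libraries), MRPL53 (−0.14 to 0.35) and MRPS17 (−0.20 to 0.021), the last 2 without single libraries. Over all 75 genes, MRPL38 also turned with both library-size scalings, and leaving out single libraries turned the sign of up to 6 genes, MRPL16, MRPL28, MRPL38, MRPL43 and MRPS25 among them. None of the genes whose sign turned was called in those fits. Among the mitoribosomal genes named, DESeq2 lost 5 calls, and edgeR, TMM scaling and both pseudocounts changed none. Of the other genes named, DESeq2 lost NGRN, RPUSD3, SUPV3L1 and C10orf2, and edgeR, TMM scaling and the pseudocount of 8 lost C10orf2. The causes were not tested. The spread of single genes is poorly known from 2 libraries a group.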
